A study of Mus musculus with 16 samples.

Results

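Genes with lower or higher levels in the DEX+TNF libraries that showed a TNF response than in the PBS+TNF libraries are described here. That response was read from Nfkbia, the gene of the NF-kB inhibitor IκBα, which had to lie above 100 CPM in a library. CPM are counts scaled by the total of the library. This rule left 2 of the 4 DEX+TNF libraries, replicates 1 and 2, out of 16 libraries in the series. They are called the chosen libraries below. Because the rule read an outcome of the same contrast, the values of the chosen libraries against PBS+TNF are a description and no test was run on that contrast. The tests given beside it compare the groups as the labels set them, with all 4 DEX+TNF libraries.

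RNA was sequenced from Paneth cells sorted from the small intestine of C57BL/6J mice. Each mouse was injected with PBS or DEX, then after 1 h with PBS or tumour necrosis factor (TNF), and was sampled 3 h after the second injection. The 16 libraries form 4 groups of 4, named by both injections: DEX+TNF, DEX+PBS, PBS+TNF and PBS+PBS. DEX commonly stands for dexamethasone, a synthetic glucocorticoid, although neither labels nor methods write the name in full, and the labels give no age for the mice. The study's text describes its Paneth cell libraries as coming from individual mice.

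TNF binds its receptor on the cell and frees NF-kB, a family of dimeric transcription factors, from inhibitors of the IκB family. NF-kB then raises genes of inflammation together with genes that shut it off again, among them Nfkbia itself and Tnfaip3. A further wave of genes, those of the interferon response, depends on STAT and IRF factors, which bind other DNA motifs. Glucocorticoids act through the glucocorticoid receptor, which raises genes such as Tsc22d3 and Fkbp5 and is known for restraining inflammatory genes.

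Nfkbia (chromosome 12, 55535332 to 55539432, minus strand, GRCm39, protein-coding) set the choice. Its level in plain CPM was 355 and 390 in DEX+TNF libraries 1 and 2, and 21.3 and 61.4 in libraries 3 and 4, the nearest outside the rule. PBS+TNF libraries held 116, 423, 334 and 444. Without TNF the level was 12.1 to 29.8 after PBS and 20.2 to 36.6 after DEX. DEX+TNF library 3 thus lay inside the range of the libraries without TNF, and library 4 between these and PBS+TNF. The Nfkbia level of library 3, and in part that of library 4, was like that of libraries without TNF, although the label names TNF. Mice that did not receive TNF and mice in which DEX held Nfkbia down cannot be told apart from the counts. Every labelled DEX+TNF value below includes both libraries. A threshold of 50 CPM would have added library 4, while 200 CPM left the same 2 libraries.

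**Figure D1:**
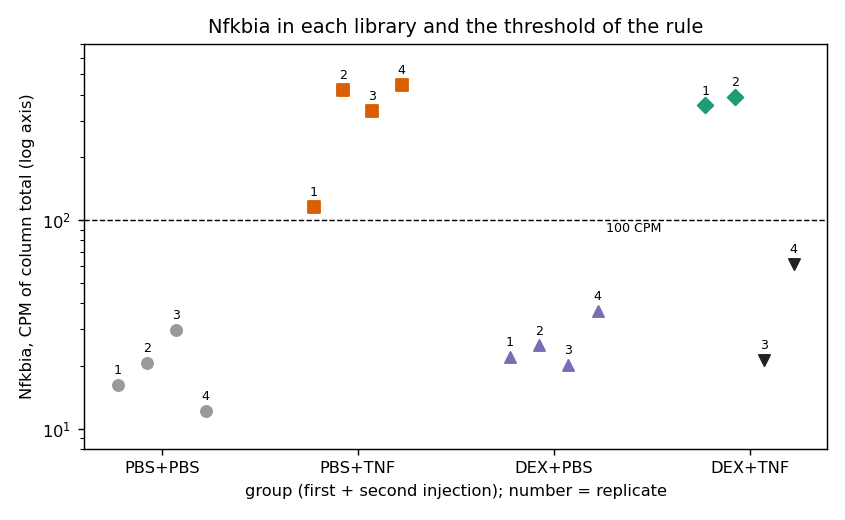
Nfkbia level in each of the 16 libraries, in CPM of the library total on a log axis, by group; points are single libraries with their replicate number, and the dashed line is the threshold of 100 CPM. DEX+TNF libraries 1 and 2 lie at 355 and 390 among the PBS+TNF libraries, and libraries 3 and 4 lie under the line at 21.3 and 61.4.

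Library totals ran from 7286307 to 15832111 counts, with 11510691 and 12122304 in the chosen libraries. The alpha-defensin (Defa) genes took 38.6% of counts in both chosen libraries and 32.2% to 59.3% in PBS+TNF. PBS+TNF library 1 had the lowest scaling factor of trimmed mean of M-values (TMM) normalization, 0.418, against 1.08 to 1.44 in the other PBS+TNF libraries and 1.08 and 1.02 in the chosen ones. All levels below are TMM-normalized CPM unless called plain. The chosen libraries were the closest pair within any group, since the chi-square of their counts over genes, divided by its degrees of freedom, was 8.78, next to 23.5 for the second closest pair. They differed by more than sampling noise and were counted as separate samples. Markers of the labelled cell type were abundant. The 14 Paneth cell genes summed to 517129 and 524772 plain CPM in the chosen libraries and to 459970 to 680751 in PBS+TNF.

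Promoter windows of 5 of the genes described below are shown to set the motifs of the NF-kB and the interferon genes side by side. They are RefSeq windows on GRCm38.p6, from 250 bases before to 50 bases after the start site, written in the direction of the gene. Capitals mark exact matches, on either strand, to the kappaB consensus bound by NF-kB or to TTTCNNTTTC, the core of the interferon-stimulated response element (ISRE). The windows are chr12:55492598-55492897 (minus strand) for Nfkbia, chr5:92348840-92349139 (minus) for Cxcl10, chr3:142620413-142620712 (plus) for Gbp2, chr3:142496684-142496983 (plus) for Gbp5 and chr11:48871371-48871670 (minus) for Irgm1.
Nfkbia: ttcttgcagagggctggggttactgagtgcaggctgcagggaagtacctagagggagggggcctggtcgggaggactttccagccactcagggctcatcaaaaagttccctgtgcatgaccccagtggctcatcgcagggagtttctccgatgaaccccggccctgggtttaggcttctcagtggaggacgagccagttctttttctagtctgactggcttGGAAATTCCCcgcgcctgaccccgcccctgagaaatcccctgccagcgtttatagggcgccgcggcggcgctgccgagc
Cxcl10: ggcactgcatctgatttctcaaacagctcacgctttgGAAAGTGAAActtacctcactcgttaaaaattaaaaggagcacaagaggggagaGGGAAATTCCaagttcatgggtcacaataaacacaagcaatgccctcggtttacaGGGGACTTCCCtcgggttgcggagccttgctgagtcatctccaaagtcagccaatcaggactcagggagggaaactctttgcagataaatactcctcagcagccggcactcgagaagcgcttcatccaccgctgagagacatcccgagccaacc
Gbp2: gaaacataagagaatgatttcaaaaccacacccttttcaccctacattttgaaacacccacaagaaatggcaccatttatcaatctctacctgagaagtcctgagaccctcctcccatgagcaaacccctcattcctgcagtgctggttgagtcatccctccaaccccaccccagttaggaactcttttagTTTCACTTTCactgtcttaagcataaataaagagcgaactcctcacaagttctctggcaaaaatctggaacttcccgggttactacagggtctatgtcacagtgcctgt
Gbp5: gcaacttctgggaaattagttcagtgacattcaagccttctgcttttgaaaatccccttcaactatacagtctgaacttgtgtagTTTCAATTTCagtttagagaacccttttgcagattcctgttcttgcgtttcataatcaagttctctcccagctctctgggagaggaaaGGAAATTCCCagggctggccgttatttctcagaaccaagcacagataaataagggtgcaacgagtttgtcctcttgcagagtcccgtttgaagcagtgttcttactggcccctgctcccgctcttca
Irgm1: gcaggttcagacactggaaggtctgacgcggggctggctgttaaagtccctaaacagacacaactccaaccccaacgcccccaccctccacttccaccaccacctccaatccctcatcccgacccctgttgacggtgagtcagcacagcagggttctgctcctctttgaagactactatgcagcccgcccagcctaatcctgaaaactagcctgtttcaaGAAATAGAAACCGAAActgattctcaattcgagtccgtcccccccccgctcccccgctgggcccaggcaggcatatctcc
In Nfkbia the capitals are 1 kappaB match that starts 29 bases before the start site. Cxcl10 held an ISRE core match at 213 bases and kappaB matches at 159, 104 and 103 bases before the start, of which the last 2 overlap. Gbp2 held an ISRE core at 59 bases, Gbp5 an ISRE core at 165 and a kappaB match at 77 bases, and Irgm1 overlapping ISRE cores at 30 and 24 bases.

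Over the gene lists, the kappaB consensus was in a window of 10 of the 17 tested NF-kB genes that have one, and the ISRE core in 0 of them. Among the guanylate-binding and immunity-related GTPases the order was the other way, with the ISRE core in 7 of 7 genes and the kappaB consensus in 1, Gbp5. Of 31 antiviral interferon-induced genes 13 held the ISRE core and 5 the kappaB consensus. In all 27025 genes with a window the shares were 7.81% for the kappaB consensus and 3.99% for the ISRE core. The core of the glucocorticoid response element, ACANNNTGT, was in 3 of 31 glucocorticoid-induced genes and in 7.90% of all genes. TTCNNNGAA, the gamma-activated sequence of STAT dimers, was in 4 of the 7 GTPase genes and in 9.55% of all genes. A kappaB motif written GGGNNNNNCC was in 53.5% of all genes, which is why the stricter consensus was used. With this looser motif the lists differed less, at 14 of the 17 NF-kB genes and 5 of the 7 GTPase genes. The consensus, chosen after seeing the data, was GGGRNHYYCC, where R is A or G, H any base but G, and Y C or T. A match is a run of letters and no proof of a site, and its absence from a window says nothing of sites elsewhere.

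Across all 11809 tested genes, both chosen libraries lay below all 4 PBS+TNF libraries in 11.7% and above them in 13.3%, and the median log2 ratio of their means was -0.01 (0.5 CPM added to each mean). These shares are the background for every count below. By label, edgeR's quasi-likelihood test with Benjamini-Hochberg adjustment called 7.15% of the tested genes higher and 5.35% lower in PBS+TNF than in PBS+PBS. It called 0.22% higher and 0.119% lower in DEX+TNF than in PBS+TNF, 26 and 14 genes. Both comparisons and the description share the PBS+TNF libraries.

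NF-kB subunits and feedback genes stood at PBS+TNF levels in the chosen libraries. Of 24 genes on the list 22 were tested and 19 rose in PBS+TNF against PBS+PBS. In the chosen libraries 3 lay above all PBS+TNF libraries, 3 below, and the median log2 ratio was 0.02. These counts are near the shares over all genes, 13.3% above and 11.7% below. In plain CPM 1 of the 22 lay above and 0 below, beside 3.68% and 6.91% of all genes. The median of the list in each library relative to the PBS+TNF mean was -0.01 and 0.12 in the chosen libraries, -2.40 and -1.74 in DEX+TNF 3 and 4, and -0.27 to 0.20 in PBS+TNF. By label 0 of the 22 were called between DEX+TNF and PBS+TNF. Since Nfkbia chose the libraries, the level of this list is no finding of its own.

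Nfkbia itself, normalized, was 330.0 and 382 in the chosen libraries and 277, 337, 311 and 308 in PBS+TNF. Tnfaip3, which encodes the ubiquitin-editing inhibitor A20, stood at 115 and 109.6 in the chosen libraries, above its 58.9, 86, 82.5 and 76.5 in PBS+TNF, with 2.25 and 7.38 in DEX+TNF 3 and 4. Its TNF response by label was a log2 fold change of 4.05 ± 0.87 (SE) with an adjusted p of 0.00679 (edgeR). Relb, the subunit of the alternative NF-kB pathway, was likewise above the PBS+TNF range, with 114 and 134 against 62.8, 101, 89.5 and 98.1. Nfkb2, its partner, which was named after its values were seen, had 234 and 255 against 149 to 214.

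The lower side held other members, though in plain CPM no gene of the list lay below all PBS+TNF libraries. Nfkbiz, whose product IκBζ acts in the nucleus on secondary NF-kB targets, was 2.66 and 3.96 in the chosen libraries and 7.71, 9.95, 9.84 and 10.7 in PBS+TNF. It did not pass the test for TNF (log2 0.59 ± 0.43 (SE), adjusted p = 0.416, edgeR), since PBS+PBS libraries held 3.34 to 10.9. The 2 others below the range, named after their values were seen, were Zc3h12a, the RNase Regnase-1, at 21.5 and 21.1 against 22.3 to 33.6, and the kinase gene Map3k8 at 0.887 and 1.46 against 1.55 to 3.01. Rel, the c-Rel subunit, overlapped PBS+TNF, at 22.2 and 25 against 29.1, 47.6, 22.8 and 35.7.

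Chemokine and cytokine genes mostly overlapped PBS+TNF. Of 36 genes 17 were tested, 8 rose with TNF and 0 of these 8 lay wholly below PBS+TNF in the chosen libraries. The list had 3 genes below, 0 above and a median log2 ratio of -0.11, against -1.46 in DEX+TNF 3 and 4. The 3 genes below were Tnfsf10, Ccl25 and Ccl9, none of which passed the test for TNF. By label 0 of the 17 were called between DEX+TNF and PBS+TNF.

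Ccl20, which draws lymphocytes and dendritic cells through CCR6, was 36.9 and 25.4 in the chosen libraries and 16.2, 18.4, 28.5 and 18.2 in PBS+TNF. Csf1, the macrophage growth factor, was 17.6 and 15.9 against 1.73, 14.1, 11 and 19. Tnf itself was 18.8 and 17 against 8.48, 21.3, 18.9 and 19. For Ccl20 library 1 lay above the PBS+TNF range and library 2 within it, and for Csf1 and Tnf both lay within.
Cxcl10, the chemokine of CXCR3 cells and a joint NF-kB and interferon target, was 26.1 and 33 against 36.4, 41.7, 32.6 and 59. Library 1 lay below the PBS+TNF range and library 2 just inside it, at 69.7% of the PBS+TNF mean on average. By label its log2 fold change was -1.52 ± 1.00 (SE), adjusted p = 0.595 (edgeR).
Tnfsf10, the gene of TRAIL, was 1.77 and 3.23 against 9.05, 5.55, 8.65 and 10.9, with 0.916 to 4.79 in DEX+PBS and 4.28 to 8.17 in PBS+PBS. Ccl25, the small intestinal chemokine of CCR9 cells, was 1.45 and 2.34 against 10.6, 2.89, 5.84 and 6.09.

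Of 30 inflammatory effector genes 19 were tested and 13 rose with TNF. The chosen libraries lay below PBS+TNF in 4 of the 19, Duoxa2, Nos2, Nox1 and Pla2g5, and above it in 1, Lcn2, with a median log2 ratio of -0.36. Without PBS+TNF library 2 the median was -0.16, and without library 4 it was -0.21. Without library 4 the number below was 8. With a PBS+TNF library left out such counts can only stay or grow, for all genes as well. The 8 is thus not to be read beside 11.7%, and its own share over all genes is not given here. Without PBS+TNF library 1, 5 of the 19 lay below, beside 16.3% of all genes. In plain CPM 4 of the 19 lay below and 1 above, beside 6.91% and 3.68% of all genes, but Nos2 was not among these 4. By label 0 of the 19 were called between DEX+TNF and PBS+TNF.

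Nos2 (chromosome 11, 78811613 to 78851080, plus strand, GRCm39), the inducible nitric oxide synthase, was 103 and 106 in the chosen libraries and 233, 238, 181 and 466 in PBS+TNF, with 0 to 1.12 in PBS+PBS. The chosen mean was 37.3% of the PBS+TNF mean of 279.7 ± 127 (SD, n = 4). Both libraries thus held a strong induction that, in TMM-normalized CPM, stopped short of every PBS+TNF library. In plain CPM the chosen libraries did not lie below PBS+TNF library 1. By label the difference was -2.29 ± 0.94 (SE) in log2, adjusted p = 0.336 (edgeR), with 0.306 and 20.2 in DEX+TNF 3 and 4.

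Duoxa2, the maturation factor of the dual oxidase Duox2, was 30.4 and 32.4 against 128, 74.5, 82.8 and 119.5, a log2 ratio of -1.67. Duox2, its partner enzyme and head-to-head neighbour, named after its values were seen, was 329 and 309 against 190.1, 479, 287 and 552 and so lay within the PBS+TNF range. Nox1, the superoxide-producing NADPH oxidase, was 6.29 and 3.15 against 14.1, 9.28, 10.8 and 23.5. Pla2g5, a secreted phospholipase, was 4.44 and 4.53 against 13.3, 11.3, 13.6 and 19.2, but was not called for TNF (adjusted p = 0.142, edgeR).
On the other side stood Icam1, the leukocyte adhesion molecule, with 116 and 114 against 52.2, 104, 106 and 127, within the range. Nod2, a sensor of bacterial peptidoglycan, was 12.2 and 13.1 against 8.09, 12.6, 9.35 and 12.3. Steap4, a metalloreductase, was 35.6 and 31.3 against 27.2, 66.7, 36.3 and 48.8. Lcn2, the siderophore-binding lipocalin, was 11.8 and 5.42 against 1.73, 0.904, 1.76 and 3.07, with 1.43 and 14.4 in DEX+TNF 3 and 4, and was called in neither labelled comparison.

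The guanylate-binding proteins and immunity-related GTPases, interferon-induced enzymes that attack the vacuoles of intracellular microbes, were low as a group. All 10 tested genes of the 18 on the list lay below every PBS+TNF library in both chosen libraries, beside a background of 11.7%. The median log2 ratio was -1.20 and ran from -1.92 (Iigp1) to -0.39 (Irgm1). Of the 10, 9 rose in PBS+TNF against PBS+PBS. The list stood at -1.22 and -1.23 in the chosen libraries relative to the PBS+TNF mean, at -2.57 and -2.70 in DEX+TNF 3 and 4, at -0.29 to 0.34 in PBS+TNF and at -3.36 to -2.36 in PBS+PBS. The chosen libraries thus lay between PBS+TNF and the libraries without TNF. In plain CPM, where PBS+TNF library 1 was low for most genes outside the defensins, 2 of the 10 lay below all 4 PBS+TNF libraries, beside 6.91% of all genes. Without that library it was 10 of 10, beside 30.4% of all genes. By label 0 of the 10 were called between DEX+TNF and PBS+TNF.

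Gbp2 (chromosome 3, 142326349 to 142343779, plus strand, GRCm39) was 28.3 and 37.7 in the chosen libraries and 126, 119, 62.4 and 61.8 in PBS+TNF, with 0 to 3.58 in PBS+PBS and 0.121 to 0.784 in DEX+PBS. The chosen mean was 35.8% of the PBS+TNF mean, and the labelled difference was -2.42 ± 0.87 (SE), adjusted p = 0.262 (edgeR).
Gbp5 (chromosome 3, 142199739 to 142228105, plus strand, GRCm39), a promoter of inflammasome assembly whose window holds both motifs, was 5.4 and 5.09 against 13.1, 20.9, 7.8 and 12.5 and had no count in any PBS+PBS or DEX+PBS library. In both genes the chosen libraries lay far above the libraries without TNF and under each PBS+TNF library.
Igtp and Irgm1, GTPases of the IRG family, differed least. Igtp was 5.4 and 4.2 against 7.13, 8.74, 5.77 and 7.53. Irgm1 was 47.5 and 50.6 against 72.4, 74.1, 53.5 and 57.4, or 76.2% of the PBS+TNF mean, with 17.6 to 29.9 in PBS+PBS.

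**Figure D2:**
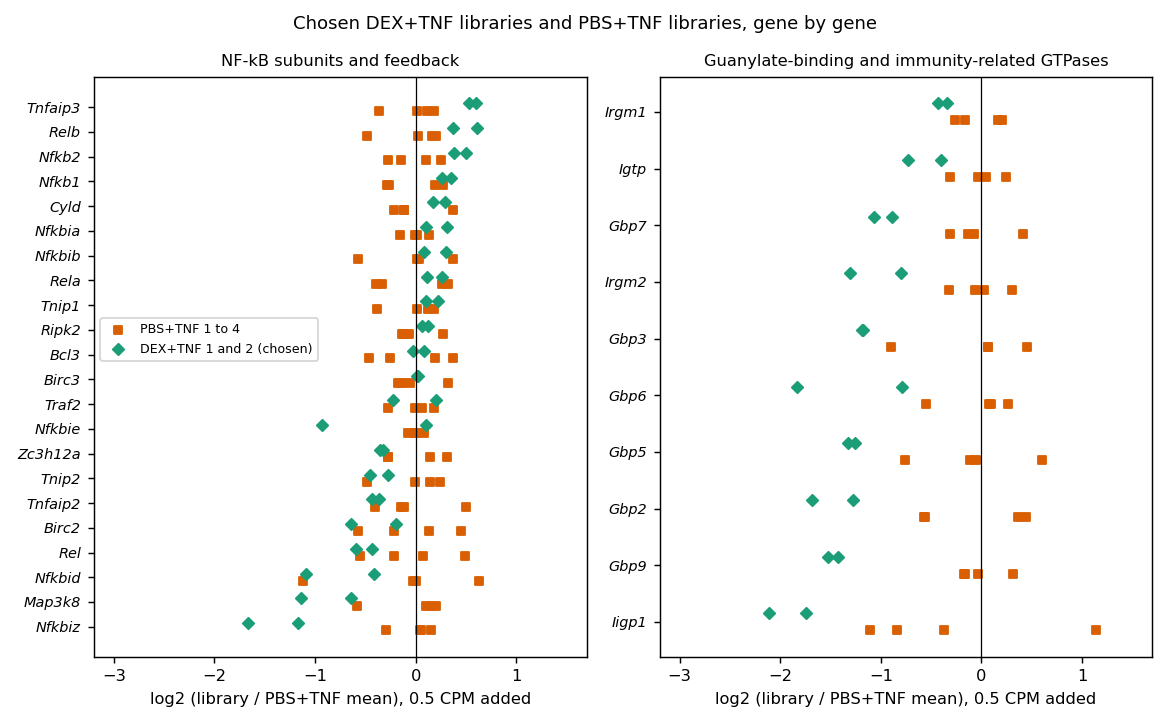
Log2 ratio of each chosen DEX+TNF library (diamonds) and each PBS+TNF library (squares) to the PBS+TNF mean, with 0.5 CPM added, for every tested gene of the NF-kB list (left, 22 genes) and the GTPase list (right, 10 genes). The NF-kB genes scatter around 0 with 3 above and 3 below the squares, and in all 10 GTPase genes both diamonds lie left of every square.

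Antiviral interferon-induced genes were lower as well, but less evenly. Of 45 genes 40 were tested and 24 rose with TNF. In the chosen libraries 25 of the 40 lay below every PBS+TNF library and 2 above, and the median log2 ratio was -0.64. The list stood at -0.62 and -0.49 in the chosen libraries, -1.24 and -1.05 in DEX+TNF 3 and 4, -0.08 to 0.02 in PBS+TNF and -1.65 to -1.13 in PBS+PBS. In plain CPM 7 of the 40 lay below, beside 6.91% of all genes, and 29 of 40 without PBS+TNF library 1, beside 30.4%. By label 2 of the 40, Rtp4 and Parp9, fell in DEX+TNF against PBS+TNF.

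Irf1, an NF-kB target that drives many GTPase genes, was 91.3 and 101 in the chosen libraries and 107, 119, 118 and 120.1 in PBS+TNF, or 83% of the mean. Its window held both the kappaB consensus and the gamma-activated sequence. Both chosen libraries lay below every PBS+TNF library, though not below library 1 in plain CPM. Irf9 and Stat2, which take part in binding the ISRE and were named after their values were seen, were 12.3 and 13.9 against 19.3 to 23.1 and 31.9 and 36.6 against 36.9 to 53.

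Gaps were larger for 4 other genes of the list. Ifi47, an immunity-related GTPase, was 17.3 and 23.2 against 153, 42.1, 56.5 and 39.2, a log2 ratio of -1.82, with 1.46 to 9.67 in PBS+PBS. Usp18, which removes ISG15 and restrains the interferon receptor, was 3.15 and 5.42 against 13.3, 9.59, 12.5 and 12.9. Rtp4, named for its call, was 4.52 and 3.48 against 16.8, 8.86, 9 and 10.4, and fell by label by a log2 fold change of -1.87 ± 0.33 (SE), adjusted p = 0.0295 (edgeR). Parp9 was 19.1 and 18.5 against 41.4, 32.7, 36.1 and 28.4, at -1.33 ± 0.27 (SE), adjusted p = 0.0457 (edgeR). Both calls were lost in a fit of the 2 groups alone.
On the high side were Zbp1, the nucleic acid sensor of necroptosis, at 32.3 and 33.6 against 29.3, 30.9, 29.3 and 21.2, and Samhd1, a dNTP hydrolase, at 102 and 96.1 against 42.2, 90.3, 72.7 and 77.5. Both lay above the PBS+TNF range in the chosen libraries, though in plain CPM 0 of the 40 genes of the list did.

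Of 24 genes of MHC class I presentation 23 were tested and 12 rose with TNF. In the chosen libraries 6 lay below PBS+TNF and 3 above, with a median log2 ratio of -0.04. In plain CPM 1 lay below and 0 above, beside 6.91% and 3.68% of all genes. The 6 were Psme1, Psme2, Psmb8, Psmb10, Nlrc5 and Pdia3, and the 3 were Tapbp, H2-Q6 and Canx. Of the immunoproteasome subunits, which cut the peptides, Psmb8 and Psmb10 were thus below, while Psmb9 was 12.3 and 13.1 against 15.2, 9.47, 13.1 and 14.4 and overlapped. Psme2, a subunit of the proteasome activator, was 48.6 and 46.3 against 196, 49.6, 77.6 and 51.9. Pdia3, a thiol oxidoreductase of the loading complex, was 303 and 282 against 461, 408, 548 and 339, with 305 to 669 in PBS+PBS. Tapbp, the gene of tapasin, was 182 and 198 against 78.2, 169.7, 130.5 and 171. Tap2, a subunit of the peptide transporter, was 64.2 and 80.4 against 35.1, 74.5, 46 and 63.5, so that library 2 lay above the range and library 1 within it. By label 0 of the 23 were called between DEX+TNF and PBS+TNF. H2 genes are close copies of each other, and how shared reads were counted is not stated, so their separate values are uncertain.

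**Figure D3:**
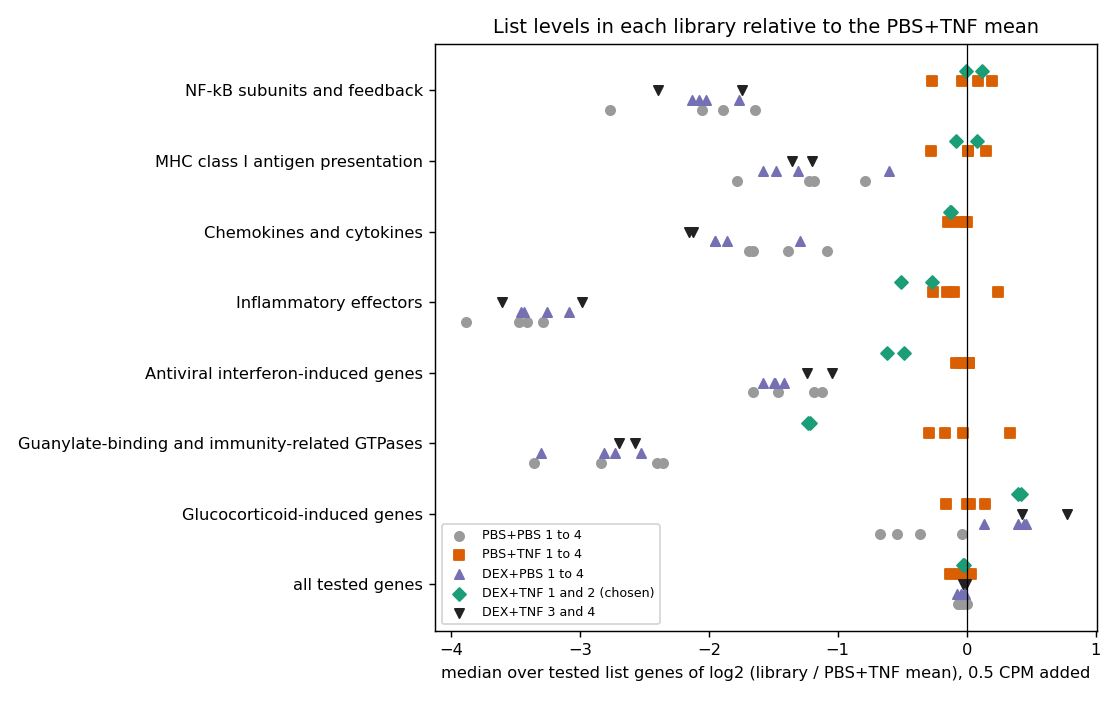
Median over the tested genes of each list of the log2 ratio of 1 library to the PBS+TNF mean (0.5 CPM added), for each of the 16 libraries; symbols mark the groups and the chosen libraries, and the vertical line is the PBS+TNF mean. The chosen libraries sit on the PBS+TNF libraries for the NF-kB list, at -1.22 and -1.23 for the GTPase list and at 0.40 and 0.42 for the glucocorticoid list.

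Glucocorticoid-induced genes were higher in the chosen libraries than in PBS+TNF. Of 42 genes 37 were tested. Both chosen libraries lay above every PBS+TNF library in 20 and below in 6, beside 13.3% and 11.7% of all genes, with a median log2 ratio of 0.47. The list stood at 0.40 and 0.42 in the chosen libraries, at 0.43 and 0.78 in DEX+TNF 3 and 4, at 0.13 to 0.46 in DEX+PBS and at -0.16 to 0.14 in PBS+TNF. In plain CPM 10 of the 37 lay above, beside 3.68% of all genes, and 0 below, and without PBS+TNF library 1 again 10, beside 3.81%. By label 5 of the 37 rose in DEX+TNF against PBS+TNF and 0 fell: Sgk1, Tsc22d3, Hif3a, Pdk4 and Angptl4.

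Sgk1, a kinase that regulates epithelial sodium transport, was 24.8 and 32.4 in the chosen libraries, 7.13, 4.82, 7.94 and 4.9 in PBS+TNF, 17.6, 29.7, 35 and 48.5 in DEX+PBS and 33.6 and 115 in DEX+TNF 3 and 4. The chosen libraries lay within the DEX+PBS range and clear of PBS+TNF. By label the log2 fold change was 3.06 ± 0.48 (SE), adjusted p = 0.0236 (edgeR).
Fkbp5, a co-chaperone of the glucocorticoid receptor, was 43.2 and 44.5 against 12.3, 23.5, 18.1 and 31. Every DEX+PBS library was higher, at 47.3 to 79.5. Fkbp5 did not pass the labelled test (log2 1.65 ± 0.43 (SE), adjusted p = 0.109, edgeR), though it did in DESeq2 (adjusted p = 0.0131). Hif3a, a hypoxia-inducible factor subunit, was 14.6 and 12.9 against 1.73, 3.38, 3.02 and 1.44, at 2.64 ± 0.45 (SE) by label, adjusted p = 0.0276 (edgeR).
Per1, a clock gene, was 25.2 and 30.2 against 11.8, 20.3, 16.4 and 21.4. All 4 were above every PBS+TNF library in both chosen libraries.

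Tsc22d3, Pdk4 and Angptl4, like Fkbp5, were lower in both chosen libraries than in every DEX+PBS library. Tsc22d3, which encodes the anti-inflammatory mediator GILZ, was 11.4 and 10.7 in the chosen libraries, 7.13, 4.82, 6.54 and 5.84 in PBS+TNF, 21, 20.3, 27 and 24.5 in DEX+PBS and 24.9 and 49.4 in DEX+TNF 3 and 4. The chosen libraries were thus above PBS+TNF, below every DEX+PBS library and within the PBS+PBS range of 10.1 to 16.8. Pdk4, a kinase that blocks pyruvate dehydrogenase, followed the same order, with 3.95 and 4.37 chosen, 0.193, 1.63, 0.914 and 0.495 in PBS+TNF, 7.4, 7.11, 14.3 and 23.3 in DEX+PBS and 26.5 and 41.3 in DEX+TNF 3 and 4. Angptl4, an inhibitor of lipoprotein lipase, was 1.77 and 0.566 chosen and 10 and 38.1 in DEX+TNF 3 and 4, against 0.0603 to 0.385 in PBS+TNF and 1.82 to 9.43 in DEX+PBS. The labelled log2 fold changes of these 3 genes were 2.00 ± 0.39 (SE), 4.43 ± 0.81 (SE) and 5.82 ± 1.14 (SE), with adjusted p of 0.0344, 0.0295 and 0.0351 (edgeR). The highest values behind them came from DEX+TNF 3 and 4, which the rule left out.

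The 6 genes of the list below PBS+TNF were Tat, Cebpd, Dusp1, Zfp36, Sdc1 and Gadd45a. The first 4 rose with TNF by label. Tat, the tyrosine aminotransferase, was 22.3 and 29.1 in the chosen libraries and 56.1, 86.3, 39.8 and 56.9 in PBS+TNF, with 0 to 0.459 in DEX+PBS. Cebpd, an acute-phase transcription factor, was 13.1 and 20.7 against 34.9, 29.2, 27.6 and 33, with 1.09 to 2.65 in DEX+PBS. Zfp36, the mRNA decay factor tristetraprolin, was 75.1 and 71 against 90.7, 134, 83.9 and 93.7, and the phosphatase gene Dusp1 was 8.71 and 11.1 against 11.9, 19.7, 12.5 and 11.4. Sdc1, the proteoglycan syndecan-1, was 12 and 11.2 against 23.5, 17.1, 21.9 and 35.3. In DEX+PBS these genes stood at or near PBS+PBS levels. Values other than those of Tat and Sdc1 were picked after they had been seen.

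**Figure D4:**
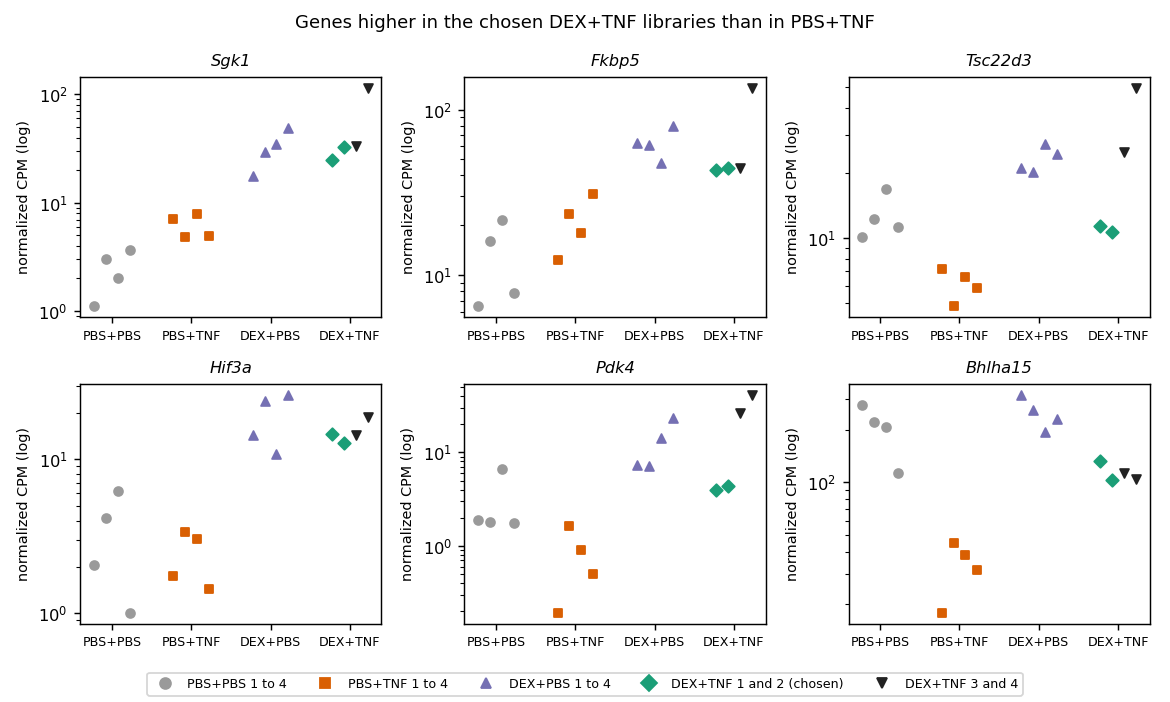
Normalized CPM (log axis) of 6 genes in each of the 16 libraries, by group; points are single libraries, and DEX+TNF is split into the chosen libraries (diamonds) and libraries 3 and 4 (triangles). In each gene both diamonds lie above all 4 PBS+TNF squares, and for Pdk4 and Tsc22d3 they lie below DEX+TNF 3 and 4.

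By rule, 12 genes were taken as the lowest of those that rose with TNF: Tlr4, Slfn2, Egln3, Fmnl2, 2010016I18Rik, Stom, Trim15, Ptk6, Fam3b, Ifi47, C2cd4b and B3gnt5. Their choice fixes the direction. Tlr4, the receptor of lipopolysaccharide, was 0.242 and 0.809 in the chosen libraries, 9.25, 3.98, 4.99 and 4.06 in PBS+TNF and 0 to 1.13 in PBS+PBS. Slfn2, a Schlafen gene of the interferon response, was 0.968 and 0.566 against 5.97, 3.86, 6.33 and 8.72, with 0 to 0.107 in PBS+PBS. It fell by label, at -3.59 ± 0.57 (SE) in log2, adjusted p = 0.0236 (edgeR), and was low in all 4 DEX+TNF libraries.
Egln3, a prolyl hydroxylase of the hypoxia pathway, was 2.26 and 2.51 against 9.44, 10.1, 13.1 and 15.2. B3gnt5, a glycosyltransferase of lactosylceramide, was 2.58 and 5.9 against 20.2, 15.7, 16.2 and 12.7. Trim15, a ubiquitin ligase, was 3.55 and 2.34 against 20.4, 11.8, 7.17 and 10.2.
C2cd4b was 7.74 and 8 against 34.7, 34.8, 20.5 and 26.1, and Stom, the membrane protein stomatin, 2.26 and 3.4 against 11.4, 14.4, 7.17 and 17.4. Fam3b, a secreted protein gene, was 2.74 and 3.4 against 13.9, 6.81, 14.1 and 14.3, Ptk6, an epithelial tyrosine kinase, 0.726 and 1.46 against 10, 3.86, 4.43 and 3.27, and the formin gene Fmnl2 2.1 and 1.29 against 10.6, 5.43, 7.38 and 11.5. The lncRNA gene 2010016I18Rik was 2.1 and 1.21 against 10.4, 2.53, 14.3 and 6.98. Of the 12, Slfn2 alone was called between DEX+TNF and PBS+TNF by label.

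Among TNF-raised genes inside the PBS+TNF range in the chosen libraries, the rule took the 6 with the largest TNF response, so that their position is fixed by the choice: Stx11, Icam1, Steap4, Krt36, Tnf and Pfkfb3. Pfkfb3, a regulator of glycolysis, was 175 and 222 against 164, 226, 178 and 225, with 3.08 to 5.87 in PBS+PBS and 10.9 and 38.9 in DEX+TNF 3 and 4. Stx11, a syntaxin of granule exocytosis, was 8.39 and 8.97 against 7.51, 7.72, 8.44 and 12 and had no count in PBS+PBS. Krt36, a keratin, was 4.76 and 6.31 against 5.78, 7.9, 3.37 and 6.04.

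Over all tested genes, those with the largest gaps on the high side held Hif3a, Sgk1 and Lcn2, described above, and Spock2, Agt, Bhlha15 and Gm54867, an rRNA gene. Bhlha15, also known as Mist1, a transcription factor of secretory cells, was 133 and 103 in the chosen libraries, 17.9, 44.9, 38.3 and 31.3 in PBS+TNF, 279, 223, 207 and 113 in PBS+PBS and 113 and 105 in DEX+TNF 3 and 4. It fell with TNF by label (-2.63 ± 0.31 (SE), adjusted p = 0.000207, edgeR) and rose in DEX+TNF against PBS+TNF (1.77 ± 0.30 (SE), adjusted p = 0.0276, edgeR). The 4 DEX+TNF libraries lay close together in this gene, chosen or not. All of them lay below the DEX+PBS libraries, which held 317, 261, 193 and 231.
Agt, the gene of angiotensinogen, was 62.2 and 92.7 against 16.4, 27.8, 12.3 and 11.3, with 17.7 and 25.4 in DEX+TNF 3 and 4. Spock2 was 5.89 and 6.95 against 0, 1.99, 0.562 and 1.49, and Gm54867 was 92.8 and 116 against 33.7, 24.3, 35.9 and 26.9.

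The labelled calls rested on few libraries. Sgk1, Tsc22d3, Hif3a, Bhlha15, Slfn2 and Rtp4 lost their calls in a fit of PBS+TNF and DEX+TNF alone. The count of 40 genes called fell to 0 without DEX+TNF 3 or 4 and without PBS+TNF 1, 3 or 4, and to 1 without PBS+TNF 2.

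On the low side of all tested genes stood Clca1, Dclk1, Trpm5, Mptx1, Pla2g4c and Fn1. Clca1, a goblet cell gene, was 11.2 and 13.2 in the chosen libraries, 445, 613, 1461 and 1543 in PBS+TNF, 20.4 to 3639 in PBS+PBS and 83.1 to 1779 in DEX+PBS. Dclk1 and Trpm5 mark tuft cells, the chemosensory cells of the epithelium. Dclk1 was at 0 in both chosen libraries against 1.93, 1.81, 23.7 and 40.7 in PBS+TNF, and Trpm5 was 0.403 and 0 against 8.67, 1.27, 25.2 and 42.1. In DEX+TNF 3 and 4 these tuft genes were at 53.8 and 206 and at 55.5 and 189.8. Mptx1, a pentraxin gene, was 9.68 and 11.2 against 320.2, 145, 287 and 223. Pla2g4c, a cytosolic phospholipase, was at 0 in both against 3.08, 13.6, 14.3 and 11.4, and Fn1, the gene of fibronectin, was 0.242 and 1.21 against 5.59, 23.9, 19.9 and 56. Levels as low were also seen without TNF, since in PBS+PBS library 1 Mptx1 was 7.28 and Pla2g4c and Fn1 were at 0, and in DEX+PBS library 4 Mptx1 was 11, Fn1 0.153 and Pla2g4c at 0. None of the 6 was called by label. In bulk libraries fewer cells of a type and less RNA per cell cannot be told apart.

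Of the marker lists of other cells named here, summed in plain CPM, the tuft list lay below the PBS+TNF range in the chosen libraries, and the enterocyte, cycling, immune, goblet and stem lists lay within it. The 6 tuft cell genes summed to 0.165 to 1.65 in the chosen libraries, 5.90 to 234 in PBS+TNF and 156 to 1150 in DEX+TNF 3 and 4, with Dclk1 and Sh2d6 at 0 in the chosen ones. The 12 enterocyte genes summed to 151 to 175 in the chosen libraries, 50.1 to 211 in PBS+TNF and 211 to 1232 in DEX+TNF 3 and 4, with Fabp1, Apoa1 and Apoa4 at 0 in the chosen ones. The 6 genes of cycling cells summed to 37.2 to 44.8, 31.9 to 193 and 42.8 to 276 in the same order. Immune genes, 11 in number, summed to 145 to 147, 57.6 to 231 and 117 to 219, with 8 of them at 0 in the chosen libraries, Ptprc and Cd3e included. The 7 goblet cell genes summed to 4671 to 6459, 3317 to 10376 and 3281 to 3891, and the 6 stem cell genes to 565 to 652, 278 to 1595 and 556 to 2300. In TMM-normalized CPM the cycling list too lay below PBS+TNF. Its median relative to the PBS+TNF mean was -1.21 and -1.31 in the chosen libraries and -0.60 to 0.75 in PBS+TNF. There 4 of the 6 cycling genes and 4 of the 6 tuft genes lay below every PBS+TNF library, beside 11.7% of all genes. Of the tested enterocyte genes it was 1 of 11, of goblet genes 2 of 7 and of stem genes 2 of 6. Enteroendocrine genes stayed under 50 plain CPM in any library, and stromal and red blood cell genes under 2. The part of these cells in the results above was not tested. Of the 8 immune genes at 0 in the chosen libraries, 4, Cd3e among them, had no count in PBS+TNF either. The other members of the list made up its sum.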

How the data were processed

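The data were bulk RNA-seq of sorted mouse Paneth cells. The deposited table holds raw counts of 55414 Ensembl genes in 16 libraries. The authors extracted RNA with the Aurum Total RNA Mini kit and prepared stranded mRNA libraries. They aligned reads with STAR (2.7.10a per the submitters' processing notes) to GRCm39 with GENCODE M30. The program that made the counts, its handling of reads that match several genes and its use of strand are not given in the sources used here, so near-identical and overlapping genes are uncertain. Names and coordinates came from GENCODE M39, on GRCm39, which held 54749 of the identifiers. Promoter windows came from RefSeq on GRCm38.p6 and were used for sequence only.

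Genes were kept with filterByExpr of edgeR 4.0.16 (11809 genes) and scaled with TMM factors. Labelled groups were compared by the quasi-likelihood test over all 16 libraries (glmQLFit, robust), two-sided, with Benjamini-Hochberg adjustment and a threshold of 0.05. SE is the log2 fold change divided by the square root of F. The test was checked on simulated counts with the same spread for every gene. Those counts lacked the outlying libraries and the divided DEX+TNF group of the real data, so the check does not cover these. For the chosen libraries, the log2 ratio of mean normalized CPM (0.5 CPM added to each mean) and the position relative to all 4 PBS+TNF libraries were computed, with no test. Medians of lists were taken over tested genes.

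Named genes were fixed by name (Nfkbia, Tnfaip3, Icam1, Cxcl10, Nos2, Ccl20, Irf1, Sgk1, Tsc22d3, Fkbp5, Per1, Pdk4, Angptl4) or by rule among genes at 5 CPM or more: of TNF-raised genes, the 12 lowest below the PBS+TNF range and the 6 with the largest TNF response inside it, the 6 lowest and 8 highest of all non-overlapping genes, and the 2 lowest and 2 highest of each list. Not every gene that these rules select is reported here. Genes named beyond this were picked after their values were seen. The libraries, lists and rules were chosen with earlier results of these data known. Library totals of 7286307 to 15832111 counts set the precision.

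Alternatives were median-of-ratios, upper-quartile and defensin-free TMM factors, plain CPM, other low-count filters, 2 CPM added, DESeq2 1.42.0, a fit of the 2 groups alone, the replicate number as a block, leaving out each library, and thresholds of 50 and 200 CPM for Nfkbia. The stricter kappaB consensus, and plain CPM without PBS+TNF library 1, were chosen after seeing the data.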

Additional observations from a re-analysis of the deposited data

Results flagged for a closer look

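Of 40 sets of 4 libraries compared, 4 held a library far from the other 3, by Dixon's gap of the outermost value over the range. Chance gives about 1 in 20 for independent sets of normal values, but some of these sets share genes. Of these, 3 came from DEX+TNF library 4, which the Nfkbia rule left out: Sgk1 was 115 there (gap over range 0.903), Fkbp5 was 135 (0.985), and the glucocorticoid list stood at 0.78 relative to the PBS+TNF mean (0.921). The glucocorticoid list holds Sgk1 and Fkbp5, so these flags are not separate. In PBS+TNF, Irf1 was 107 in library 1 (0.861), the lowest of the 4. Both chosen libraries lay below this value.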

How the results depend on the processing

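The median log2 ratio of each list kept its sign under median-of-ratios factors, upper-quartile factors and defensin-free TMM for all lists other than NF-kB, whose median lies near 0. The interferon list moved to -0.41 at a mean of at least 5 CPM and -0.43 with 2 CPM added, and ran from -0.65 to -0.49 when 1 library was left out. The GTPase list moved to -0.91 with 2 CPM added. Genes below and above PBS+TNF numbered 1376 and 1566, 816 and 434 in plain CPM, and 804 below at a mean of at least 5 CPM (7939 genes). They ran from 1547 to 2359 below and from 1770 to 2773 above with 1 library left out. In plain CPM without PBS+TNF library 1, chosen after seeing the data, they were 3586 and 450, the median of all genes was -0.25, and the list medians were -0.32 (NF-kB), -0.39 (chemokines), -0.63 (effectors), -0.82 (interferon), -0.28 (MHC class I) and 0.12 (glucocorticoid). Of 64 named genes 54 kept 1 sign under all 14 alternatives, with 34 values that moved by more than the spread of PBS+TNF libraries and 845 by less. A threshold of 50 CPM chose 3 libraries. The labelled DEX+TNF count of 40 (1408 at an unadjusted p under 0.05) was 274 in DESeq2 and 0 in the fit of 2 groups (975 unadjusted), and ran from 0 to 102 with 1 library left out, 89 and 102 without DEX+TNF 1 or 2, 1 without PBS+TNF 2, and 0 without DEX+TNF 3 or 4 or PBS+TNF 1, 3 or 4 (1017 to 1425 unadjusted). Tnfaip3, not called, ran from -0.94 to 0.024 with 1 library left out, its sign turning without DEX+TNF 3. The TNF count of 1476 was 2061 in DESeq2 and ran from 916 to 1638 with 1 library left out, with 916 and 961 without PBS+PBS 1 or 2. Upper-quartile factors moved its higher share from 57.2% to 46.3% and the median of all genes from -0.03 to -0.15. Replicate numbers were not taken to pair the libraries, because not every same-numbered pair deviated together: deviations correlated at -0.12, 0.34, 0.06 and -0.28 for TNF and at -0.05, 0.41, 0.23 and 0.50 for DEX+TNF. With the replicate block the counts were 1482 and 16, and Tsc22d3 had an adjusted p of 0.0553 (edgeR). The cause of these changes was not tested.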
